A study of Mus musculus with 8 samples.

Results

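The 35 genes described here encode autophagy factors and lysosomal proteins, and were chosen by name for their role in this pathway among the 24421 gene symbols counted in CD4+ T cells from arthritic mouse knees. All 35 symbols were found in the count table, and 34 had a count in some library. They comprise 13 autophagy factors, 20 lysosomal proteins and the transcription factors Tfeb and Tfe3. The study compared 4 libraries of Slc7a5 knockout cells with 4 libraries of wild-type cells, all sorted as CD4+ T cells after enzyme treatment of the knees of 16-week-old male mice. In every animal arthritis had been induced with an antigen, a model in which the joint of an immunised mouse is challenged. Slc7a5 encodes LAT1, a transporter of large neutral amino acids. The labels do not give the promoter or cell type in which the gene was deleted, the deleted part of it, or whether the libraries of a genotype stem from separate animals. P-values therefore rest on library-to-library spread, part of which may be technical. RNA was amplified with a kit for low input and read on an Illumina NovaSeq instrument.

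Autophagy encloses part of the cytoplasm in a double membrane and delivers it to the lysosome. The ULK1 kinase and the beclin 1 lipid kinase complex start the membrane, the ATG5, ATG12 and ATG16L1 conjugate attaches Atg8-family proteins to it, and receptors such as p62, encoded by Sqstm1, bring in cargo. The lysosome digests the content with cathepsins and other hydrolases in an acid lumen that the vacuolar proton pump maintains. TFEB and TFE3 switch on many of these genes, and mTORC1, which senses amino acids at the lysosome, holds both factors in the cytoplasm. In T cells the pathway is known for its part in survival, memory and the turnover of mitochondria.

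The 8 libraries held 18837650 to 36436923 counts. Detected genes were 8640, 7684, 9358 and 5221 in knockout replicates 1 to 4, against 10139, 9934, 9815 and 7957 in wild-type replicates 1 to 4. Slc7a5 itself had no counts in any knockout library, and 10.7, 7.01, 12.6 and 0 CPM (counts scaled to library size, here with TMM factors) in wild-type replicates 1 to 4. It was at least 252-fold lower in knockout against a floor of 3 counts over the pooled knockout libraries. Knockout replicate 4 stood apart, with Spearman correlations of 0.489 to 0.544 with the other 7 libraries. Since wild-type replicate 4 was also at 0 for Slc7a5, this gene does not check that label. All 8 T cell markers examined were detected in every library, but Cd4 was at 1.78 CPM in knockout replicate 4 and at 344 to 427 CPM in the other 3 knockout libraries, against 373 to 570.3 CPM in wild type. Cd5 and Cd28 were also lowest of the knockout libraries in replicate 4, at 43.5 and 578 CPM. Cd3d, Cd3e, Cd3g, Cd2 and Lck were highest of them there. The 8 markers summed to 7823 CPM in that replicate and to 5971 to 7095 CPM in the other 3, against 7013 to 9635 CPM in wild type. The markers of monocytes, macrophages and dendritic cells (20 genes) summed to 2003 to 10963 CPM in knockout and 1286 to 3096 CPM in wild type. Most of that sum lay in Cd74 and the MHC class II chains. The macrophage markers Adgre1 and Mrc1 were at 0 in all 8 libraries. Csf1r was at 0, 44.3, 21.9 and 0.0522 CPM in knockout replicates 1 to 4, against 0 in all 4 wild-type libraries. Other markers of the list were mixed. Lyz2 was at 0, 0, 25.5 and 0.366 CPM in knockout replicates 1 to 4, against 22.0 to 25.7 CPM in wild type. Cd14 was at 0, 0, 22.2 and 0.209 CPM there, against 9.01 to 40.1 CPM in wild type. Itgam, Itgax and C1qc had counts in wild type only, and Cd68 and Tyrobp were detected in all 8 libraries. Lysosomal genes are also strongly transcribed in monocytes, macrophages and dendritic cells, and the part of these cells in the values below was not tested. In sorted bulk cells, fewer cells of a type and less RNA per cell cannot be told apart.

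**Figure D1:**
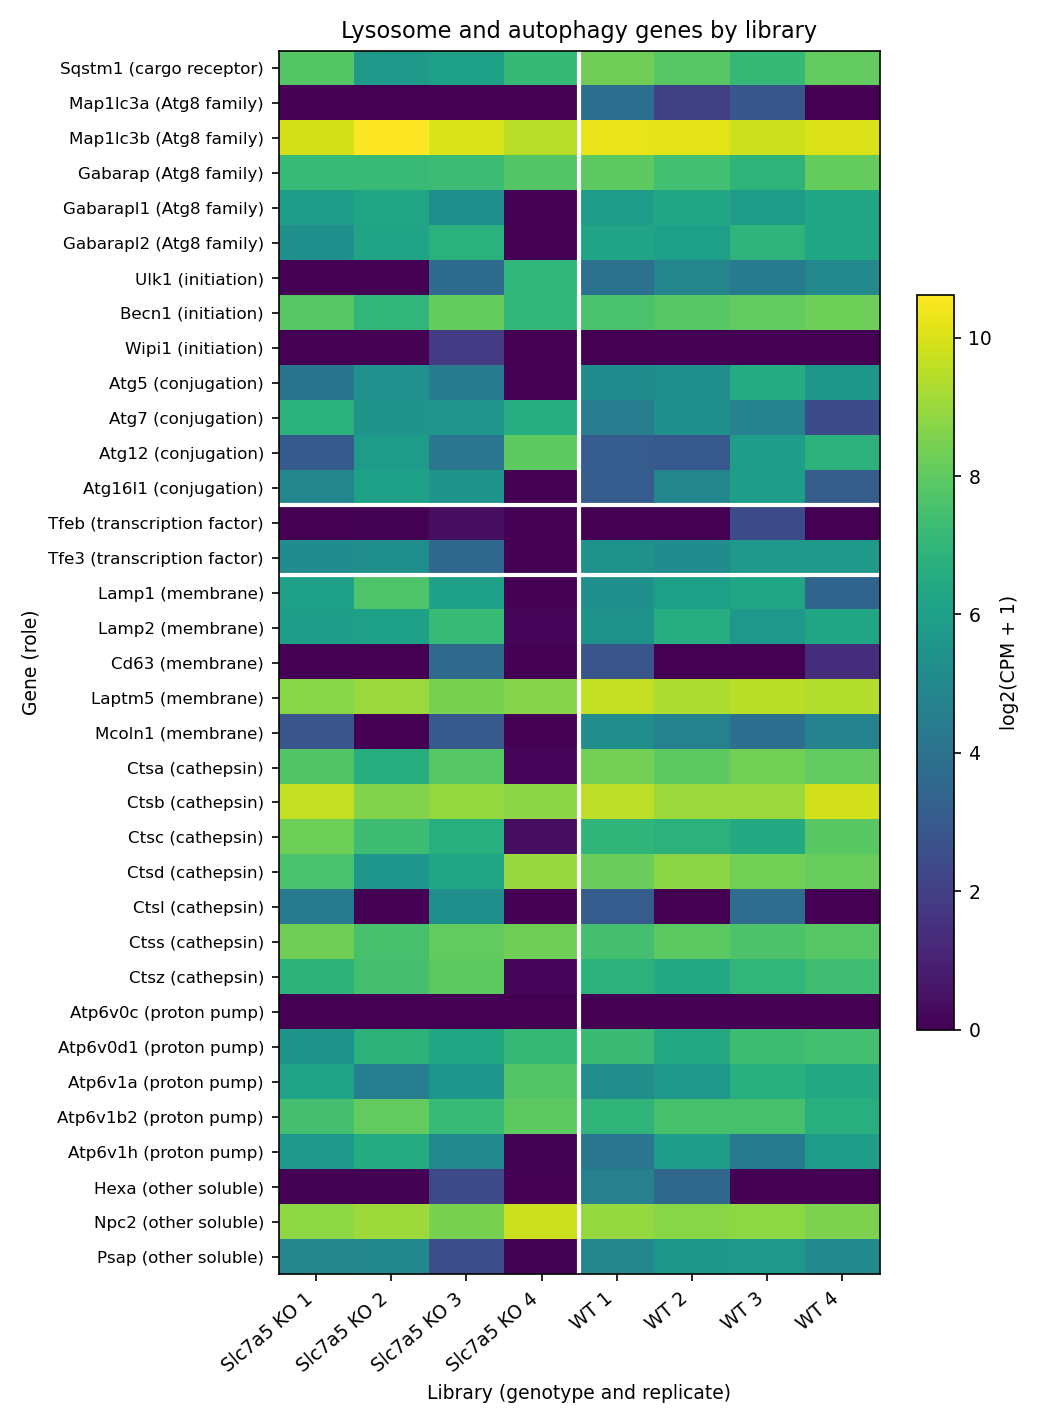
Heat map of the 35 genes (rows, with their roles) in the 8 libraries (columns, knockout left and wild type right), coloured by log2(CPM + 1). Map1lc3b stays bright in all 8 libraries, Atp6v0c is at 0 throughout, and 9 of the 17 tested lysosomal genes are at no more than 10 counts in knockout replicate 4.

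Promoters are shown first because TFEB and TFE3 bind an E-box with the palindromic core CACGTG, and lysosomal genes are the class known for it. RefSeq promoters (GRCm38.p6, 250 bases before to 50 bases after the start) were found for 28 of the 35 genes, and not for Ctsb, Atg12, Atg16l1, Atp6v1h, Atp6v1b2, Map1lc3a and Becn1. The 8-base palindrome TCACGTGA, which reads the same on both strands and contains CACGTG, occurred in 5 of 17 lysosomal genes with a promoter and in 0 of 9 autophagy factors. Among the 27025 genes with such a promoter the share was 1.12%, and it was 2.59% among the 6529 of them tested in these data. The 6-base CACGTG alone was in 7 of 17 lysosomal genes, 2 of 9 autophagy factors and 8.09% of all genes. The 5 lysosomal genes with TCACGTGA were Mcoln1, Ctsd, Atp6v0d1, Ctsa and Atp6v1a, and the first 4 are printed because they had the smallest p among them. Capitals mark TCACGTGA, which starts 46 bases before the start site in Mcoln1, 99 before it in Ctsd and 4 before it in Atp6v0d1. Ctsa holds it at 13 bases before the start site and again from base 5 after it.
Mcoln1, chr8:3500269-3500568, plus strand: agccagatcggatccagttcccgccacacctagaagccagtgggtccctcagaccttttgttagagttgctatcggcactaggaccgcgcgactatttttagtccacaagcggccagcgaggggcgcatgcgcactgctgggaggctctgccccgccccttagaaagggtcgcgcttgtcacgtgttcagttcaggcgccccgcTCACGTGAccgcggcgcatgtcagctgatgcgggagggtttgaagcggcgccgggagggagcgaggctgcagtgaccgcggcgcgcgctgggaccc
Ctsd, chr7:142387778-142388077, minus strand: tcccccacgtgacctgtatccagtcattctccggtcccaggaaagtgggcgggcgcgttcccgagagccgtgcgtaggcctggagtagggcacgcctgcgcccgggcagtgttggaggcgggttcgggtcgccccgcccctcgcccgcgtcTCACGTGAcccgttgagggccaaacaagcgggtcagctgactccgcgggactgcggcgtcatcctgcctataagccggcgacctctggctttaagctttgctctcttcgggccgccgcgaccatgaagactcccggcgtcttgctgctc
Atp6v0d1, chr8:105566015-105566314, minus strand: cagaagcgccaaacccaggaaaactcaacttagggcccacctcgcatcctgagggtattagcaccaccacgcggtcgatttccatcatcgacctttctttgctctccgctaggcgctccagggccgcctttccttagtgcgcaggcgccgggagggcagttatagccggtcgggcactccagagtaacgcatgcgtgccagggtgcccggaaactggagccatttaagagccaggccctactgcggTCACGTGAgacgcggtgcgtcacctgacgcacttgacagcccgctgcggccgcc
Ctsa, chr2:164833523-164833822, plus strand: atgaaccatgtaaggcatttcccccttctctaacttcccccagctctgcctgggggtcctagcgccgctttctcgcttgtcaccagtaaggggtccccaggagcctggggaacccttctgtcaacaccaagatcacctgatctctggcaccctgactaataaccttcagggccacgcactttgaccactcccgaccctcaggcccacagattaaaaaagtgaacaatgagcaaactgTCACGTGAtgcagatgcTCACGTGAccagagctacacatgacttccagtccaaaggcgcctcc
Lamp1 carried 4 copies of CACGTG and none of TCACGTGA in this window. A match describes the letters only and shows no binding.

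After Benjamini-Hochberg adjustment in the quasi-likelihood test of edgeR, none of the members passed the threshold between knockout and wild type, and neither did any other gene (0.0% of 8489 called). Of the 35 genes 29 passed the filter on low counts and were tested, while Map1lc3a, Wipi1, Tfeb, Cd63, Atp6v0c and Hexa were removed by it. At an unadjusted p under 0.05 there was 1 lower member, Laptm5, where 1.97% of all tested genes were lower at that level, and there were 0 higher members, where 1.87% were higher. DESeq2 called 1 lower member, Map1lc3a, where it called 3.06% of 10659 genes lower. Groups that did not overlap were counted too. All 4 knockout libraries lay below all 4 wild-type libraries for 3 members (Laptm5, Mcoln1 and Ctsa), where 4.62% of tested genes did so, and above them for 1 member (Atg7), where 1.52% did.

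**Figure D2:**
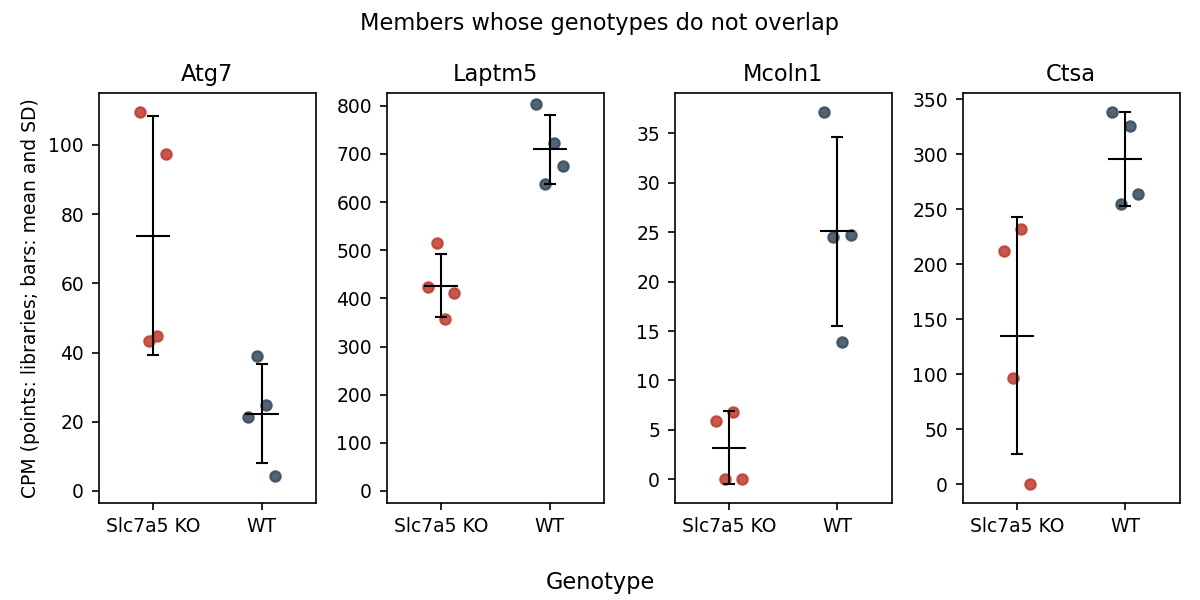
CPM (vertical axis, linear, starting just below 0) of the 4 genes whose libraries did not overlap between knockout (left, red) and wild type (right, blue); points are libraries, and bars are the mean and SD of 4. Atg7 is higher in knockout, and Laptm5, Mcoln1 and Ctsa are lower, with Ctsa at 0.104 CPM in knockout replicate 4.

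Among the membrane proteins of the lysosome, Laptm5 was lower in knockout with little spread. Laptm5 is a lysosomal protein of blood cells that sends T cell receptor zeta chains to degradation. It was at 423, 515, 356 and 412 CPM in knockout replicates 1 to 4, against 803, 637, 722 and 675 CPM in wild-type replicates 1 to 4. The highest knockout library stayed under the lowest wild-type one. The means were 427 ± 66.0 CPM in knockout and 709 ± 71.6 CPM in wild type (SD, n = 4 each), and the log2 fold change was −0.73 (SE 0.21, edgeR adjusted p = 0.460). The gene lies on chromosome 4 from 130913125 to 130936141 (GRCm38), shares no exon with another gene in the annotation, and its longest transcript has a GC content of 56.0%, above 86.1% of tested genes. Corrected for GC content, the estimate was −0.42, no longer at an unadjusted p under 0.05. Without knockout replicate 4 it was again −0.73.

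Mcoln1 encodes the calcium channel TRPML1 of the lysosome, which is also a known target of TFEB. It was at 5.94, 0, 6.77 and 0 CPM in knockout replicates 1 to 4, against 37.2, 24.6, 13.8 and 24.8 CPM in wild-type replicates 1 to 4. The groups did not overlap, and 2 knockout libraries had no reads of it. The log2 fold change was −2.98 with an SE of 2.32, and it did not pass (edgeR adjusted p = 0.9999).

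Lamp1 and Lamp2, the abundant glycoproteins that line the lysosomal membrane, did not separate the genotypes. Lamp1 was at 66.8, 207.5, 66.0 and 0 CPM in knockout replicates 1 to 4, against 39.7, 61.6, 77.5 and 9.71 CPM in wild-type replicates 1 to 4. Its log2 fold change was 0.85 (SE 1.52), rested on the 207.5 CPM of knockout replicate 2, and was −0.11 without that library. Lamp2 ranged from 0.104 to 143 CPM in knockout and from 42.2 to 95.5 CPM in wild type, with a log2 fold change of 0.02 (SE 1.29). Cd63, a tetraspanin of late endosomes, was seen only in knockout replicate 3 (11.7 CPM) and in wild-type replicates 1 and 4 (6.0 and 1.59 CPM), and was removed by the filter.

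The cathepsins are the proteases of the lumen, and their estimates lay on both sides of 0. Ctsa, a carboxypeptidase that also protects other lysosomal enzymes, was at 212, 96.9, 232 and 0.104 CPM in knockout replicates 1 to 4, against 338, 255, 326 and 264 CPM in wild-type replicates 1 to 4. The 4 knockout libraries were below the wild-type ones, and 1 of them held only 2 reads. The log2 fold change was −1.13 (SE 1.18, edgeR adjusted p = 0.9999), and −0.73 (SE 0.33) without knockout replicate 4. Its promoter, printed above, holds 2 copies of TCACGTGA. Reads of Ctsa may in part belong to Pltp and Neurl2, whose exons overlap it on the opposite strand.

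Ctsd, the main aspartic protease, was at 187, 46.3, 74.6 and 504 CPM in knockout replicates 1 to 4, against 292, 430.2, 329 and 279 CPM in wild-type replicates 1 to 4. Of the knockout libraries 3 lay below all wild-type libraries and replicate 4 lay above all of them. The log2 fold change was −0.71 (SE 0.61) with all libraries and −1.71 (SE 0.46, edgeR adjusted p = 0.479) without knockout replicate 4. In the annotation 36.6% of the 50-base stretches of the longest Ctsd transcript also occur in Gm49369, an overlapping gene on the same strand.

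Ctsb, a cysteine protease, was at 802, 382, 485 and 432 CPM in knockout replicates 1 to 4, against 759.6, 515, 520.2 and 957 CPM in wild-type replicates 1 to 4. The groups overlapped through knockout replicate 1, and the log2 fold change was −0.39 (SE 0.30). Fdft1 shares 15.4% of the 50-base stretches of the longest Ctsb transcript on the opposite strand. Ctss, the protease that trims the invariant chain of MHC class II, was at 316, 185, 268 and 319.8 CPM in knockout replicates 1 to 4, against 176, 240.5, 199 and 231 CPM in wild-type replicates 1 to 4. The log2 fold change was 0.36 (SE 0.31), and 3 knockout libraries were above all wild-type libraries. Cd74, the invariant chain itself, was at 4636, 5926, 1434 and 7352 CPM in knockout replicates 1 to 4, against 1969, 903, 881 and 934 CPM in wild-type replicates 1 to 4, and the part of antigen-presenting cells in the Ctss values was not tested. Ctsc, which activates granzymes, and Ctsz were near 0 in knockout replicate 4 (0.313 and 0.104 CPM) and had log2 fold changes of 0.01 (SE 1.12) and 0.13 (SE 1.16). Without that library they were 0.41 (SE 0.46) and 0.53 (SE 0.35). Ctsl was at 0 in 2 knockout and 2 wild-type libraries and reached 38.5 CPM in knockout and 12.7 CPM in wild type.

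Subunits of the vacuolar proton pump showed no common direction. Atp6v1b2, part of the ATP-splitting head, was at 179, 265, 143 and 249.7 CPM in knockout replicates 1 to 4, against 122, 182, 182 and 99.8 CPM in wild-type replicates 1 to 4. The groups overlapped through knockout replicates 1 and 3, and the log2 fold change was 0.52 (SE 0.38). Atp6v0d1, part of the membrane sector, was at 42.7, 115, 82.2 and 138 CPM in knockout replicates 1 to 4, against 149, 83.2, 156 and 171 CPM in wild-type replicates 1 to 4. Its log2 fold change was −0.56 (SE 0.53). Atp6v1a and Atp6v1h, also of the head, had log2 fold changes of 0.39 (SE 0.86) and 0.16 (SE 1.55), and Atp6v1a was at −0.58 (SE 0.64) without knockout replicate 4. Atp6v0c, the proteolipid of the membrane ring, was listed at 0 in all 8 libraries, and 12.1% of the 50-base stretches of its longest transcript also occur in a pseudogene transcript, Atp6v0c-ps2.

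The remaining soluble proteins differed in abundance. Npc2, which carries cholesterol out of the lumen, was at 441, 526, 356 and 875 CPM in knockout replicates 1 to 4, against 480.4, 424, 448 and 362 CPM in wild-type replicates 1 to 4. Its log2 fold change was 0.36 (SE 0.29), and 0.02 (SE 0.22) without knockout replicate 4. Psap, the precursor of the saposins, was at 27.8, 30.3, 4.70 and 0.0522 CPM in knockout replicates 1 to 4, against 28.8, 47.3, 51.4 and 32.1 CPM in wild-type replicates 1 to 4. The log2 fold change was −1.34 (SE 1.67). Hexa, a subunit of hexosaminidase, was at no more than 4.10 CPM in knockout and at 23.5, 11.0, 0 and 0 CPM in wild-type replicates 1 to 4, and was removed by the filter.

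The regulators themselves were scarce. Tfeb had 9 counts over the 4 knockout libraries and 138 counts in wild type, all in replicate 3. Tfe3 was at 33.7, 37.5, 10.7 and 0 CPM in knockout replicates 1 to 4, against 41.3, 33.4, 51.9 and 50.8 CPM in wild-type replicates 1 to 4. Knockout replicate 2 lay above the lowest wild-type library, so the groups overlapped, and the log2 fold change was −1.12 (SE 1.70). Of the 5 tested members with TCACGTGA, 4 had lower estimates in knockout, with a median log2 fold change of −0.71. Among all 169 tested genes with that motif 89 had lower estimates (52.7%), with a median of −0.08. Among the 6360 without it the share was 55.3% and the median −0.13.

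Among autophagy factors, the cargo receptor Sqstm1 had the smallest p. It was at 224, 52.4, 63.4 and 137.4 CPM in knockout replicates 1 to 4, against 319.7, 228, 136.7 and 269 CPM in wild-type replicates 1 to 4. Knockout replicates 2 and 3 were lowest of all, and replicates 1 and 4 lay within the wild-type range. The means were 119 ± 79.4 CPM in knockout and 238 ± 77.4 CPM in wild type (SD, n = 4 each), with a log2 fold change of −1.0 (SE 0.51, edgeR adjusted p = 0.9999). It was −1.49 (edgeR adjusted p = 0.476) without knockout replicate 1. In the annotation 20.4% of the 50-base stretches of the longest Sqstm1 transcript also occur in Mrnip, on the opposite strand.

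The Atg8 family consists of LC3 and GABARAP proteins, which are fixed to the growing membrane and hold cargo receptors there. Map1lc3b, which encodes LC3B, was at 964, 1560.4, 1032 and 700.5 CPM in knockout replicates 1 to 4, against 1230.5, 1166, 897 and 1060.5 CPM in wild-type replicates 1 to 4. The wild-type values lay within the knockout range, and the log2 fold change was −0.03 (SE 0.25). Gabarap was at 143, 146, 152 and 219.9 CPM in knockout replicates 1 to 4, against 249.8, 174, 119.8 and 273 CPM in wild-type replicates 1 to 4, with a log2 fold change of −0.30 (SE 0.38). Gabarapl1 and Gabarapl2 were at 0 in knockout replicate 4. In the other 3 knockout libraries Gabarapl1 ranged from 38.5 to 74.1 CPM, against 55.1 to 79.8 CPM in wild type. Gabarapl2 ranged from 38.9 to 109 CPM there, against 63.1 to 119 CPM in wild type. Their log2 fold changes were −0.62 (SE 1.49) and −0.58 (SE 1.40), and −0.22 (SE 0.52) and −0.18 (SE 0.50) without that library.

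Map1lc3a, which encodes LC3A, had no reads in any knockout library and was at 13.6, 3.0, 6.09 and 0 CPM in wild-type replicates 1 to 4. It was at least 196-fold lower in knockout against the floor of 3 counts over the pooled knockout libraries, which covers counting error only. Wild-type replicate 4 had no reads either, so the genotypes overlap at 0. The filter removed this gene. Without the filter edgeR gave an adjusted p of 0.364 and DESeq2 an adjusted p of 0.0489.

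Per kb of exon, Map1lc3b led the family at 142 ± 47.9 CPM per kb in knockout and 145 ± 19.4 CPM per kb in wild type, and made up 43.9% to 58.5% of the family's sum in knockout libraries and 39.4% to 48.6% in wild-type libraries. Gabarap followed at 89.7 ± 19.8 and 111 ± 38.1 CPM per kb in knockout and wild type. Gabarapl2, at 23.7 ± 20.1 in knockout and 35.4 ± 10.7 in wild type, and Gabarapl1, at 21.5 ± 16.1 in knockout and 33.0 ± 5.95 in wild type, did not differ from each other beyond their spread. Map1lc3a was last at 0 in knockout and 4.80 ± 4.94 CPM per kb in wild type. The order of the 5 mean levels was the same in knockout and wild type. Over all 35 genes, the highest mean levels per kb in knockout were those of Ctss (200.3), Map1lc3b (142) and Laptm5 (113), and in wild type those of Laptm5 (187), Ctss (156) and Map1lc3b (145). Levels per kb divide by the union of all annotated exons of a gene, 7517 bases for Map1lc3b and 1358 for Ctss. Their longest transcripts have 4138 and 1355 bases. The ranks over all 35 genes and the family shares depend on this choice of length.

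**Figure D3:**
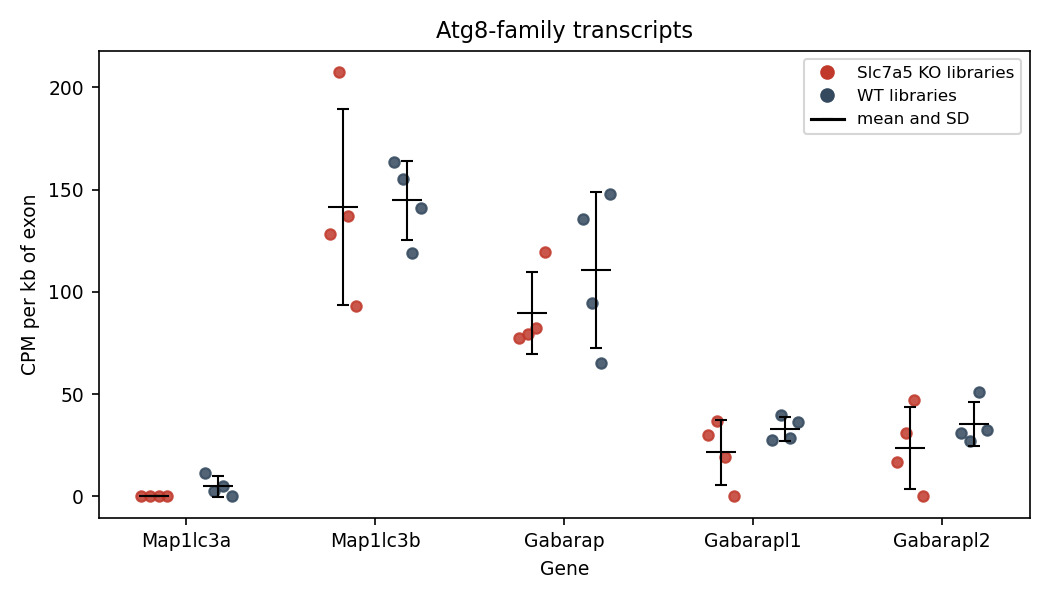
Levels of the 5 Atg8-family transcripts in CPM per kb of exon (vertical axis, linear from just below 0), with knockout libraries (red) left of wild-type libraries (blue) for each gene; points are libraries and bars the mean and SD of 4. Map1lc3b and Gabarap are the highest in both genotypes, and Map1lc3a is at 0 in all knockout libraries.

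Initiation factors were unevenly detected. Ulk1, the kinase that starts autophagy, was at 0, 0, 12.2 and 124.8 CPM in knockout replicates 1 to 4, against 14.5, 27.6, 19.9 and 30.7 CPM in wild-type replicates 1 to 4. Of the knockout libraries 3 lay below all wild-type libraries and replicate 4 lay above all of them. The log2 fold change was 0.56 (SE 2.17) and turned to −2.52 (SE 2.57) without knockout replicate 4. Becn1, which encodes beclin 1, was at 227, 125, 275 and 128 CPM in knockout replicates 1 to 4, against 188, 228, 264 and 304 CPM in wild-type replicates 1 to 4. The groups overlapped, with a log2 fold change of −0.38 (SE 0.37). Cntd1 shares 45.7% of the 50-base stretches of the longest Becn1 transcript on the opposite strand. Wipi1, which binds the lipid made by the beclin 1 complex, was at 2.51 CPM in knockout replicate 3, with a single read in wild-type replicate 1 and none elsewhere.

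Of the conjugation enzymes, Atg7 was higher and Atg5 lower in knockout by their estimates, and neither passed. Atg7, the E1-like enzyme that activates ATG12 and the Atg8 family, was at 109.6, 43.5, 44.9 and 97.4 CPM in knockout replicates 1 to 4, against 21.3, 39.1, 24.8 and 4.37 CPM in wild-type replicates 1 to 4. The groups did not overlap, though the lowest knockout library exceeded the highest wild-type library by little. The means were 73.8 ± 34.6 CPM in knockout and 22.4 ± 14.3 CPM in wild type (SD, n = 4 each), with a log2 fold change of 1.72 (SE 1.16, edgeR adjusted p = 0.9999). Atg5, which is joined to ATG12, was at 16.0, 40.7, 18.8 and 0 CPM in knockout replicates 1 to 4, against 34.2, 38.1, 94.0 and 47.7 CPM in wild-type replicates 1 to 4. Knockout replicate 2 lay within the wild-type range and the other 3 below it, with a log2 fold change of −1.50 (SE 1.68). Atg12 ranged from 6.99 to 252 CPM in knockout and from 6.68 to 111 CPM in wild type, and its log2 fold change of 0.85 (SE 1.31) turned to −0.79 (SE 1.26) without knockout replicate 4. Atg16l1 ranged from 0 to 65.7 CPM in knockout and from 7.50 to 58.1 CPM in wild type (log2 fold change 0.43, SE 1.80).

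Set side by side, the classes showed no called difference. Of 13 autophagy factors 11 were tested, with 7 lower and 4 higher estimates in knockout and a median log2 fold change of −0.30. Of 20 lysosomal proteins 17 were tested, with 7 lower and 10 higher estimates and a median of 0.02. Among all tested genes 55.0% had lower estimates and the median was −0.12. The lysosomal split depended on the scaling. There were 10 lower and 7 higher estimates both when scaled by total counts alone (median −0.07) and with the GC offset (median −0.28). The median of all tested genes was itself −0.22 by total counts and −0.12 with the GC offset. The 13 autophagy factors summed to 1819, 2236, 1809.5 and 1660.5 CPM in knockout replicates 1 to 4, against 2213, 2083, 1856 and 2257 CPM in wild-type replicates 1 to 4. The 20 lysosomal proteins summed to 3325, 2887, 2696 and 3150.4 CPM in knockout replicates 1 to 4, against 3594, 3317, 3422 and 3733 CPM in wild-type replicates 1 to 4. Both sums overlapped between genotypes, the lysosomal one only through knockout replicate 1. Single genes weighed much in them. Map1lc3b made up 42.2% to 69.8% of the autophagy sum in knockout libraries and 47.0% to 56.0% in wild-type libraries. Laptm5 made up 12.7% to 17.9% of the lysosomal sum in knockout libraries and 18.1% to 22.3% in wild-type libraries. The ratio of the lysosomal to the autophagy sum was 1.63 ± 0.29 in knockout and 1.68 ± 0.11 in wild type (SD, n = 4 each). All 35 genes together summed to 4516 to 5178 CPM in knockout and 5334 to 6041 CPM in wild type, without overlap. Laptm5 made up 423 of the 5178 CPM in knockout replicate 1 and 722 of the 5334 CPM in wild-type replicate 3. Without this gene the genotypes would overlap, so the sum does not show a drop shared by the set. Since the genes were chosen by name with results known, no test was made of the sum.

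**Figure D4:**
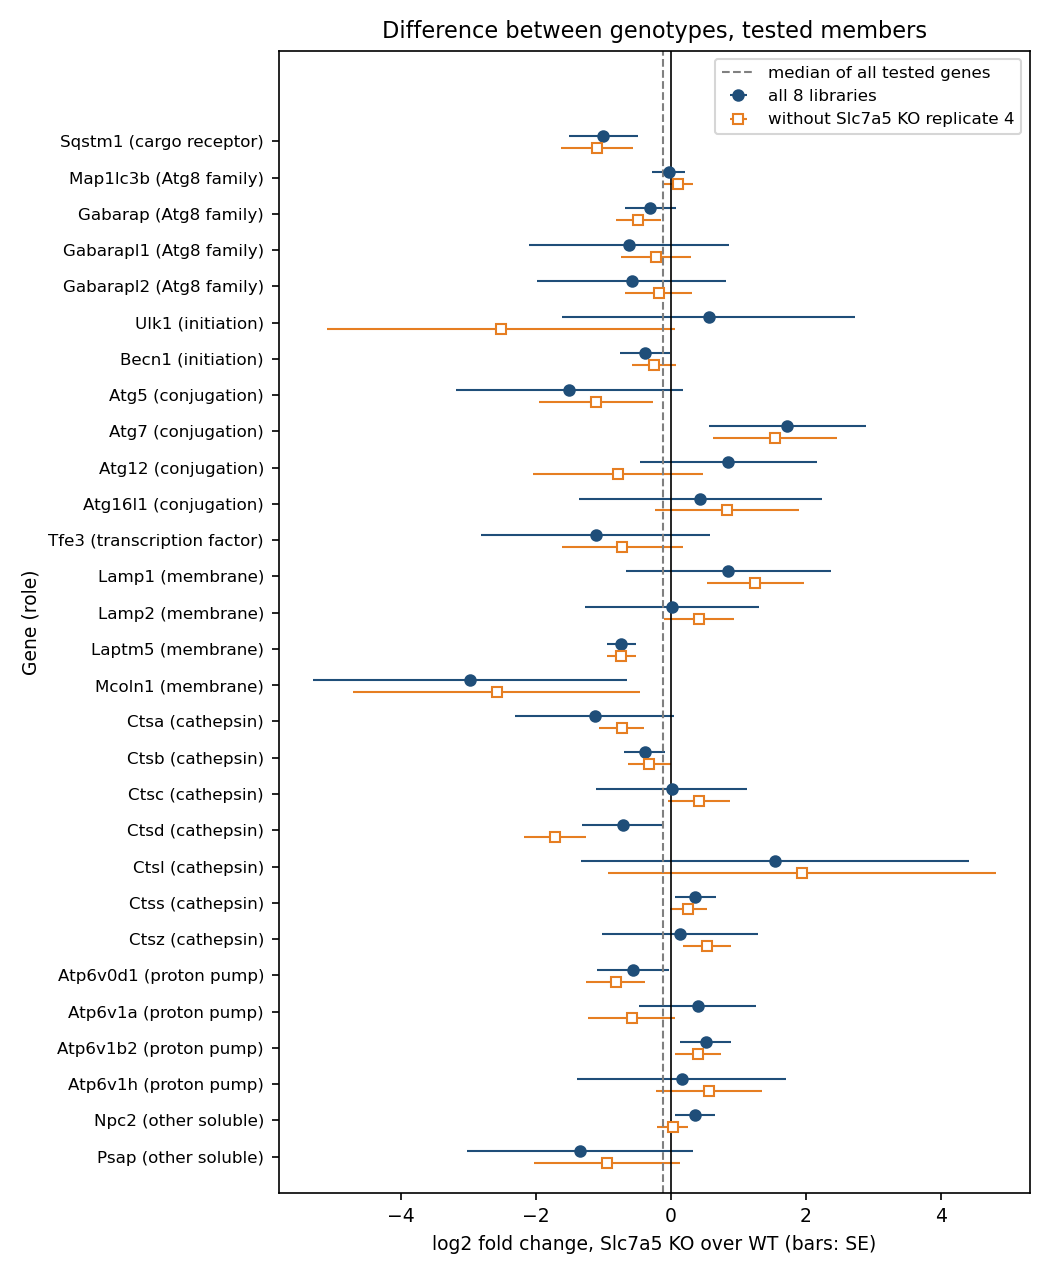
Log2 fold change, knockout over wild type (horizontal axis, bars are SE), of the 29 tested genes (rows, with roles), from all 8 libraries (filled circles) and without knockout replicate 4 (open squares); the dashed line is the median of all tested genes (−0.12). Laptm5 lies at −0.73 in both fits with the shortest bars, while Map1lc3b, Ulk1, Atg12 and Atp6v1a change sign.

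Knockout replicate 4 held few reads of many members. Of the 29 tested members 14 were at 10 counts or fewer there (48.3%), namely 4 of 11 autophagy factors, 9 of 17 lysosomal proteins and Tfe3, beside 55.2% of all tested genes. In knockout replicates 1 to 3 it was 1, 3 and 0 of the 29, and in wild-type replicates 1 to 4 it was 0, 1, 0 and 1. Without that library, 0 members passed in edgeR and 3 were lower at an unadjusted p under 0.05 (Laptm5, Ctsd and Map1lc3a), where 5.23% of the genes tested then were lower. Lower estimates then numbered 9 of 12 autophagy factors and 9 of 19 lysosomal proteins, beside 53.5% of all genes, with medians of −0.37 and 0.02. Of the 29 members, 25 kept the sign of their estimate and 4 changed it.

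**Figure D5:**
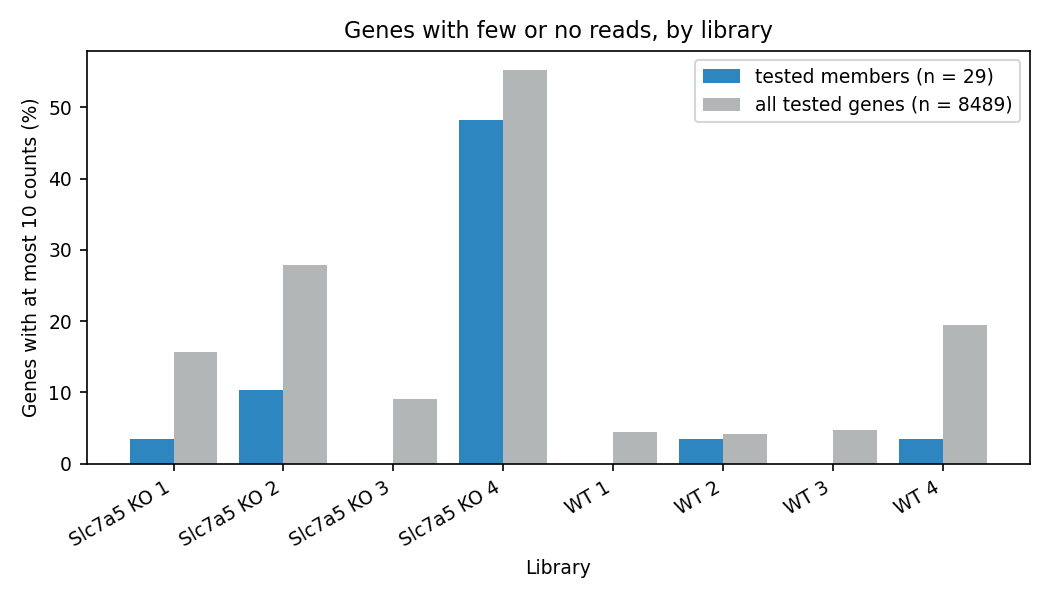
Share of genes with at most 10 counts (vertical axis, percent) in each library, for the 29 tested members (blue) and all 8489 tested genes (grey), with knockout libraries on the left and wild-type libraries on the right. Knockout replicate 4 stands out at 48.3% of members and 55.2% of all tested genes.

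Other genes of the pathway, from wider lists, also gave no call in edgeR. Of 42 further autophagy genes 40 were among the symbols and 37 were tested, with 25 lower and 12 higher estimates and a median of −0.39, or −0.07 without knockout replicate 4. In edgeR 0 of them passed. At an unadjusted p under 0.05, where 1.87% of all tested genes were higher, 1 was higher. This was Vmp1, a membrane protein of the endoplasmic reticulum needed to form autophagosomes, at 579.9, 711, 317 and 224 CPM in knockout replicates 1 to 4, against 181, 235, 266 and 85.1 CPM in wild-type replicates 1 to 4. The groups overlapped in knockout replicate 4, with a log2 fold change of 1.26 (SE 0.44, edgeR adjusted p = 0.75). The next higher were Atg3, the E2-like enzyme for Atg8 proteins, and Bnip3l, a receptor for mitochondria, with log2 fold changes of 0.71 (SE 0.68) and 0.31 (SE 0.31). The lower ones with the smallest p were Tecpr1 (−1.13, SE 0.77), Nbr1, a cargo receptor like p62 (−2.35, SE 2.24), and Snap29, a fusion protein of autophagosomes (−2.12, SE 2.28).

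Of 77 further lysosomal genes 76 were among the symbols and 55 were tested, with 31 lower and 24 higher estimates and a median of −0.11, or −0.23 without knockout replicate 4. In edgeR 0 passed. All knockout libraries lay below all wild-type libraries for 5 genes of the 55, where 4.62% of all tested genes did so. Ctsw, a cathepsin of cytotoxic lymphocytes, was at 18.2, 0, 0 and 0 CPM in knockout replicates 1 to 4, against 95.5, 90.9, 73.1 and 84.9 CPM in wild-type replicates 1 to 4, with an estimate of −4.24 (SE 2.33) that did not pass. Atp6v1d, of the pump head, had a log2 fold change of −0.63 (SE 0.41). Higher estimates with the smallest p were those of the pump subunits Atp6v0e (0.54, SE 0.28) and Atp6v1g1 (0.48, SE 0.40) and of Ppt1, an enzyme that removes palmitate (1.13, SE 0.71). For Atp6v1g1 the sign turned without knockout replicate 4.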

How the data were processed

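The authors deposited unnormalised read counts for 24421 gene symbols in 8 libraries. Per the submitters' processing notes the tools were HISAT2 2.1.0, featureCounts and edgeR 3.28.1 with mm10; the annotation, strand setting and duplicate handling are not given in the sources used here. Reads of overlapping or antisense genes therefore cannot be told apart.

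R 4.3.3 and edgeR 4.0.16 were used on these counts. filterByExpr (minimum count 10, minimum total 15) kept 8489 genes. After TMM scaling, a quasi-likelihood model with genotype alone and robust dispersions was fitted to all of them, and p-values were adjusted by Benjamini-Hochberg with a threshold of 0.05. Log2 fold changes are knockout over wild type, and the SE is the fold change over the square root of F. Exon lengths, GC content, overlaps and shared 50-base stretches came from GENCODE M21 (GRCm38, the coordinates of mm10). GC was known for 8200 tested genes (96.6%). Lower bounds and intervals cover counting error only. The script was tested on simulated data.

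The labels do not say whether replicate numbers pair the samples. Deviations of same-numbered libraries correlated at −0.02, 0.02, 0.02 and 0.05, and those of other pairs at −0.06 to 0.05. Such values cannot show whether the samples were paired. Alternatives were no filter, a mean CPM of at least 50, RLE and total-count scaling, DESeq2 1.42.0, limma 3.58.1 voom (plain or weighted by library quality), a block for the replicate number, a GC offset (loess, span 0.75), both together, and libraries left out. The members, lists and tests were chosen with earlier results of these data known. Per-library values were to be given for members at an unadjusted p under 0.05 or with groups that did not overlap, the 4 with the smallest p in each class, and 11 fixed members; from each wider list, up to 3 genes per direction, taken by p among those averaging at least 5 CPM. A result of the lysosomal list is not reported here. Npc2, Psap, Ctss and Atp6v0d1 were added to these after their values were seen. Marker lists of osteoclasts, neutrophils, B cells and synovial fibroblasts summed to at most 153, 44.6, 39.6 and 91.2 CPM in any library.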

Additional observations from a re-analysis of the deposited data

Results flagged for a closer look

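Of 62 groups of 4 libraries examined (each tested member and the sums of both classes, in each genotype), 2 had a library whose gap to its neighbour exceeded Dixon's critical share of the range; chance flags about 1 group in 20. Both were in knockout replicate 4, where Gabarap stood at 219.9 CPM above the other 3 knockout libraries, and Ulk1 at 124.8 CPM above the other 3.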

How the results depend on the processing

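No member passed the adjusted threshold in edgeR under any of the filters, scalings, covariates or left-out libraries, nor in limma voom; DESeq2 called 1. At an unadjusted p under 0.05 there was 1 member, and 2 without the filter, 3 with DESeq2, 3 with limma voom with or without quality weights, 0 with the GC offset, 3 without both replicate 4 libraries, and 1 to 4 with 1 library left out (most without knockout replicate 1). Among all tested genes, the share lower at that level was 1.97% with all libraries and 5.23% without knockout replicate 4. For the other settings, here and with the block below, this share is not given. Where the share is given, the few members at that level do not set them apart from other genes. Elsewhere the counts cannot be compared with other genes. The median of the autophagy factors was −1.13 in limma voom and −0.41 to −0.19 with 1 library left out. That of the lysosomal proteins was −1.30 in limma voom, against 0.02 in edgeR, and −0.32 to 0.20 with 1 library left out. The median of the further lysosomal genes was −1.94 in limma voom and −0.44 to −0.09 with 1 library left out, and that of the further autophagy genes −1.51 and −0.43 to −0.07. In limma voom the median of all tested genes was itself −1.28.

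With the replicate number as a block, 2 members were at an unadjusted p under 0.05, and 0 with the block and the GC offset together. The labels do not say whether the numbers pair the samples. The block turned the log2 fold changes of Ulk1 (−4.86), Atg16l1 (−0.19), Lamp1 (−0.31), Lamp2 (−0.59), Ctsc (−0.35), Ctsz (−0.35), Atp6v1a (−0.0012) and Atp6v1h (−0.033). With the GC offset as well these were Map1lc3b (0.024), Ulk1 (−4.49), Atg16l1 (−0.36), Lamp1 (−0.19), Lamp2 (−1.02), Ctsc (−0.69), Atp6v1a (−0.20), Atp6v1h (−0.50) and Bnip3l (−0.028).

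Of 41 genes examined singly, 28 kept their direction under all 19 alternatives. Signs turned for Map1lc3b with RLE (0.0032), DESeq2 (0.0021) and the GC offset (0.079), which also turned Lamp2 (−0.35), Ctsc (−0.28) and Atp6v1h (−0.23). Limma voom turned Ulk1 (−4.43), Atg16l1 (−1.35), Lamp1 (−1.66), Lamp2 (−1.66), Ctsc (−1.44), Ctsz (−1.69) and Atp6v1h (−1.42). Quality weights turned Ulk1 (−5.29), Atg12 (−0.070), Atp6v1a (−0.30), Npc2 (−0.086), Bnip3l (−0.025) and Atp6v1g1 (−0.14). Lamp2 and Ctsc turned without the filter (−0.0015 and −0.0058), at a mean CPM of at least 50 (−0.0094 and −0.010) and by total counts (−0.090 and −0.068), the last with Atp6v1h (−0.013). Without both replicate 4 libraries the turned genes were Map1lc3b (0.092), Ulk1 (−2.35), Atp6v1a (−0.47), Npc2 (−0.052), Bnip3l (−0.016) and Atp6v1g1 (−0.091). With 1 library left out, the ranges were −0.30 to 0.11 for Map1lc3b, −2.52 to 0.98 for Ulk1, −0.79 to 1.76 for Atg12, −0.10 to 1.24 for Atg16l1, −0.11 to 1.25 for Lamp1, −0.67 to 0.42 for Lamp2, −0.69 to 0.41 for Ctsc, −0.32 to 0.53 for Ctsz, −0.58 to 0.69 for Atp6v1a, −0.55 to 0.56 for Atp6v1h and −0.027 to 0.73 for Atp6v1g1. The cause was not tested. Members with few reads in a library, mostly in knockout replicate 4, had SEs above 1 on the log2 scale in the fit of all 8 libraries. Differences of that size or below were not detectable for them in that fit. Even the −2.98 of Mcoln1 (SE 2.32) had an unadjusted p of 0.224 in edgeR.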

Other observations

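GC content moved with the fold changes in general: across the 29 tested members the Spearman correlation of transcript GC content with the log2 fold change was −0.27, across all 8200 tested genes with a GC value −0.23, and across the 3387 of these with a mean CPM of at least 50 it was −0.35. These are descriptions over genes of the same 8 libraries.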
